A study of Mus musculus with 6 samples.

Results

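The genes described here are the 8 members of the suppressor of cytokine signalling (SOCS) family, Socs1 to Socs7 and Cish, found by their gene names among 54532 genes in a table of expression values. All 8 were present, and all 8 were among the 13441 genes that reached 1 FPKM in at least 3 of the 6 libraries and were tested. FPKM counts read fragments scaled to gene length and library depth. RNA sequencing was done on mouse bone marrow-derived macrophages (BMDMs) after in vitro co-culture with ID8 cells, a mouse ovarian surface epithelial line used as a model of ovarian cancer. In 3 libraries, called cisplatin replicates 1 to 3, the ID8 cells had been pretreated with 40 μM of cisplatin, which crosslinks DNA, and in the other 3, called PBS replicates 1 to 3, with phosphate-buffered saline. Both groups therefore held BMDMs cultured with ID8 cells. No library of BMDMs cultured alone was analysed here, and ID8 is a single line. The marrow came from young C57BL/6 mice, and the study's methods call the isolated cells monocytes. The donors' sex and the time in co-culture are not given in the sources used here. The labels also do not say whether replicates came from separate cultures or animals, so the p-values measure the spread between these libraries, which may be technical.

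SOCS proteins are the classical feedback brake on cytokine signalling through Janus kinases (JAKs) and their STAT transcription factors. Cytokine binding activates JAKs, these phosphorylate STATs, and the STATs switch on genes that include several SOCS genes, whose products then bind the receptor or the kinase through an SH2 domain. At their other end a SOCS box recruits elongins B and C and the cullin CUL5, forming a ubiquitin ligase that marks bound proteins for degradation. In macrophages SOCS1 is best known as the brake on interferon-γ signalling, and SOCS3 as the brake on IL-6 signalling through the shared receptor subunit gp130.

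Between 15776238 and 17924686 reads per library could be recovered from the deposited values. The log2 values of libraries of the same group correlated at 0.984 to 0.989 across genes, and those of different groups at 0.872 to 0.877. The BMDM label was checked against markers of 4 kinds of cell. All 12 macrophage markers were detected and all 12 rose with cisplatin, with a summed level of 1838 to 1861 FPKM in the PBS libraries and 4588 to 4765 FPKM in the cisplatin libraries, although Mertk reached 1 FPKM only with cisplatin and so had to be higher there to be tested. Markers of ID8 and mesothelial cells were also high, so the libraries did not hold macrophage RNA alone. Of their 13 tested members 11 fell and 2 rose, and the keratin Krt19 averaged 588 ± 28.8 FPKM (SD, n = 3) in the PBS libraries and 51.1 ± 3.80 FPKM in the cisplatin libraries. The summed ID8 and mesothelial level was 1519 to 1616 FPKM with PBS and 1212 to 1229 FPKM with cisplatin, a smaller gap because the matrix protein gene Thbs1, counted in that list, was at 136 and 930 FPKM. Of the 17 listed, the defining epithelial markers Epcam and Krt7 did not reach the filter, nor did Igfbp5 and Col1a2. Igfbp5 is among the genes by which the study marked tumour cells. Of 7 tested lymphocyte markers 6 rose, the B cell receptor component Cd79a from 63.9 ± 3.62 to 147 ± 6.34 FPKM, and none of 4 tested erythroid markers passed the test. By that test, described below, 32.9% of all tested genes rose and 35.1% fell. In bulk RNA such as this, fewer cells of a type and less RNA per cell cannot be told apart. The part that these marker shifts have in the SOCS values was not tested.

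Of the SOCS genes 5 separated the groups, moving in both directions. Socs3, Socs5 and Cish fell and Socs4 and Socs2 rose with cisplatin, while Socs1, Socs6 and Socs7 did not pass the test. When libraries were scaled by Y-linked genes Socs4 and Socs2 turned to lower values, and Socs4 then passed the test as lower. Socs2 passed the filter only through the cisplatin group and lost its call when any 1 library was left out, so 4 of the calls stand without it. Here rose and fell mean an adjusted p under 0.05 in limma on log2(FPKM + 1), with Benjamini-Hochberg adjustment over all 13441 genes. That rule was met by 68.0% of all tested genes, 32.9% higher and 35.1% lower with cisplatin, and by 5 of the 8 SOCS genes, 2 higher and 3 lower. The study's own threshold adds a fold change of at least 2. In limma this 2-fold threshold is taken as at least 1 in size on log2(FPKM + 1), so a gene whose mean FPKM changed over 2-fold can miss it. Both thresholds were met by 15.9% of tested genes (4.67% higher and 11.3% lower). None of the 8 SOCS genes met both, neither in limma nor in voom on the recovered reads. With voom an adjusted p under 0.05 was met by 71.3% of tested genes and by 7 of the 8 SOCS genes, and an unadjusted p under 0.05 in limma by 5 of them. The median size of the log2 fold change was 0.35 over the 8 SOCS genes and 0.39 over all tested genes. The 3 libraries of one group all lay on the same side of the 3 of the other for 72.4% of tested genes and for 5 of the 8 SOCS genes.

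**Figure D1:**
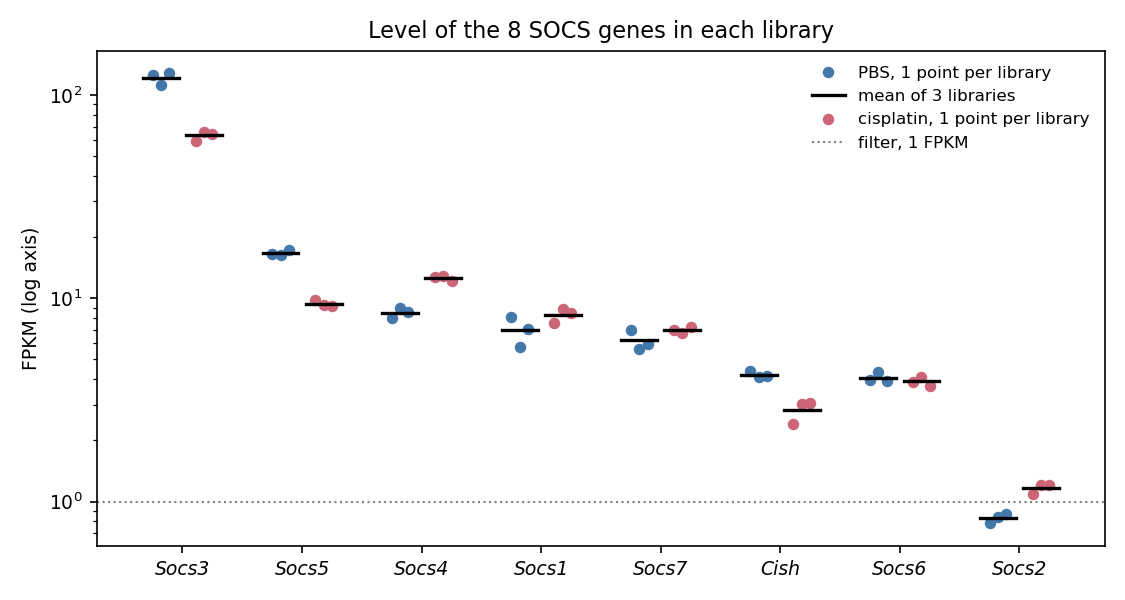
Level of each SOCS gene in FPKM (log axis) in the 3 PBS libraries (blue points) and the 3 cisplatin libraries (red points), with the group mean as a black line. The groups stand apart for Socs3, Socs5, Socs4, Cish and Socs2 and overlap for Socs1, Socs7 and Socs6, and the dotted line at 1 FPKM passes between the PBS and cisplatin points of Socs2.

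Socs3 was by far the most abundant member and had the largest change. It was at 125, 113 and 128 FPKM in the PBS libraries and at 59.7, 65.7 and 64.7 FPKM in the cisplatin libraries. Every cisplatin library was therefore below every PBS library, and the gap between the groups was several times the spread within either. The mean fell from 122 ± 8.13 to 63.4 ± 3.20 FPKM (SD, n = 3 each), 1.92-fold lower, with a log2 fold change of -0.93 (SE 0.061, 95% interval -1.08 to -0.79, limma adjusted p = 1.32e-05). Among all tested genes 18.2% had a larger change in size. The values rest on 2937 to 6399 reads per library, the deepest coverage in the family. Socs3 (ENSMUSG00000053113) lies on the minus strand of chromosome 11 at 117966079 to 117970047 in mm10.

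The 250 bases before the RefSeq start of Socs3 are shown because the gene is a known target of STAT3 and because the stretch holds 1 copy of the core to which activated STAT dimers bind, TTCNNNGAA, in capitals. The stretch is chr11:117969367-117969616 on the minus strand of GRCm38.p6, and the match lies 154 to 146 bases before the start. Part of it is annotated as an exon of a noncoding Socs3 transcript.
Socs3: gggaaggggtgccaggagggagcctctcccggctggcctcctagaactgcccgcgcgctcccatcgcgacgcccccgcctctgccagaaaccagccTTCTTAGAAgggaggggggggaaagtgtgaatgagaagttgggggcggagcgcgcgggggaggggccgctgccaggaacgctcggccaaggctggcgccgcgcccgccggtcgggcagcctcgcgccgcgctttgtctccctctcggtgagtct
The core, which reads the same on both strands, is found in 7.02% of the 32851 RefSeq windows of this length before a start. A match is a description of the letters and not a measured binding site.

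The genes whose pattern over the 6 libraries was most like that of Socs3 were Ube2o, Wbp1l and Zfp703. They were taken from protein-coding genes with a mean of at least 5 FPKM, the same direction and a log2 fold change within 0.25 of that of Socs3. Pearson's r of log2(FPKM + 1) with Socs3 was 0.9993 for Ube2o, 0.9993 for Wbp1l and 0.9991 for Zfp703. With 2 separate groups of 3 such values are common, and 536 of the 585 candidate genes had an r above 0.95. Ube2o, a ubiquitin-conjugating enzyme gene, averaged 16.8 FPKM with PBS and 8.81 FPKM with cisplatin.

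Socs1, the other member known for control of macrophage activation, did not follow Socs3. Its level was 8.08, 5.78 and 7.03 FPKM in the PBS libraries and 7.56, 8.82 and 8.47 FPKM in the cisplatin libraries. The groups overlap, since the first PBS library was above the first cisplatin library, and the PBS libraries were the most scattered of any member relative to their mean. The log2 fold change was 0.23 (SE 0.11, 95% interval -0.04 to 0.50), which did not pass the test (limma adjusted p = 0.112). Without the first PBS library the call changed, with a log2 fold change of 0.33 (limma adjusted p = 0.0304), and voom on the recovered reads gave 0.34 (adjusted p = 0.0124). Socs1 (ENSMUSG00000038037) lies on the minus strand of chromosome 16 at 10782240 to 10785536 and was counted from 262 to 421 reads per library.

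The difference between these neighbours in function is clearest as a ratio within each library, which does not depend on how libraries were scaled. Socs3 was at 15.5, 19.5 and 18.2 times the FPKM of Socs1 in the PBS libraries and at 7.90, 7.45 and 7.63 times in the cisplatin libraries. The groups do not overlap, and the two-sided exact permutation p is 0.1, the smallest that 3 against 3 can give.

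The 250 bases before the RefSeq start of Socs1 are shown for comparison with those of Socs3, because they hold no TTCNNNGAA but 2 overlapping copies of the interferon-stimulated response element core, which reads GAAA, a spacer of any 2 bases and GAAA. They lie at chr16:10785537-10785786 on the minus strand of GRCm38.p6, outside any annotated exon. The capitals mark both matches, 83 to 74 and 77 to 68 bases before the start.
Socs1: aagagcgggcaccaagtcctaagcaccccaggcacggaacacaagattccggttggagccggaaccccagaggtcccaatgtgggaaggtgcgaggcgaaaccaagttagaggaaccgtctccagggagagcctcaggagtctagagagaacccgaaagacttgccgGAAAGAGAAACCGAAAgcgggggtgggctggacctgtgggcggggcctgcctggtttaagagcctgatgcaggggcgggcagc
On either strand this core is found in 2.98% of windows of this length before a start.

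Cish, the founding member of the family and a classical target of STAT5, fell. It was at 4.37, 4.10 and 4.15 FPKM with PBS and at 2.40, 3.03 and 3.04 FPKM with cisplatin. The groups stand apart, and the first cisplatin library is the lowest of the 6. The mean went from 4.21 ± 0.15 to 2.82 ± 0.37 FPKM (SD, n = 3), with a log2 fold change of -0.45 (SE 0.085, 95% interval -0.65 to -0.25, limma adjusted p = 0.00275). Cish (ENSMUSG00000032578) lies on the plus strand of chromosome 9 at 107296026 to 107302784 and overlaps the antisense genes Gm17040 and Gm17041, whose highest mean was 0.0881 FPKM. Whether the authors' counting used strand is not given in the sources used here.

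The start of Cish is shown because 2 copies of TTCNNNGAA stand side by side there. The stretch is chr9:107296654-107296683 on the plus strand of GRCm38.p6, within the 5′ UTR of the transcript Cish-201, which starts further upstream, at 107296026. The capitals mark the matches, at bases 1 to 9 and 12 to 20 of the RefSeq transcript.
Cish: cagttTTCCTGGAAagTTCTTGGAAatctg
At least 1 copy is found in 8.3% of RefSeq windows from 250 bases before to 50 bases after a start. The RefSeq promoter table matched 4 of the 8 members, Cish, Socs1, Socs3 and Socs4. The 300 bases of Socs4 hold neither core.

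Socs2, best known as the brake on growth hormone signalling, was the least abundant member. It was at 0.783, 0.835 and 0.873 FPKM with PBS and at 1.09, 1.21 and 1.21 FPKM with cisplatin. All 3 cisplatin libraries were higher, but no PBS library reached 1 FPKM, so Socs2 was tested only because of its level in the cisplatin group. The log2 fold change was 0.24 (SE 0.09, 95% interval 0.03 to 0.46, limma adjusted p = 0.0457). The call was lost when any 1 of the 6 libraries was left out (adjusted p 0.0654 to 0.131), with a log2 fold change between 0.23 and 0.27. Socs2 (ENSMUSG00000020027) lies on the minus strand of chromosome 10 at 95385362 to 95417180 and was counted from 124 to 190 reads per library.

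Socs4 and Socs5, a pair of paralogues with long N-terminal regions that are linked to receptors of the epidermal growth factor family, moved in opposite directions on the deposited FPKM. Socs5 was at 16.4, 16.3 and 17.4 FPKM with PBS and at 9.84, 9.23 and 9.13 FPKM with cisplatin. It fell from 16.7 ± 0.58 to 9.40 ± 0.38 FPKM (SD, n = 3), 1.78-fold lower, with a log2 fold change of -0.77 (SE 0.048, 95% interval -0.88 to -0.65, limma adjusted p = 1.10e-05). No library of one group came near the other. Socs4 was at 7.98, 8.98 and 8.55 FPKM with PBS and at 12.7, 12.9 and 12.2 FPKM with cisplatin. It rose from 8.50 ± 0.50 to 12.6 ± 0.35 FPKM, 1.48-fold higher, with a log2 fold change of 0.52 (SE 0.054, 95% interval 0.39 to 0.65, limma adjusted p = 0.000135). With Y-linked scaling the log2 fold change of Socs4 was -0.39, and it passed as lower (limma adjusted p = 0.000819). That value is 0.44 above the median of all tested genes on that scale, where Socs2 was 0.58 above it.

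The order of this pair changed with cisplatin. Socs5 was at 2.06, 1.81 and 2.03 times the FPKM of Socs4 in the PBS libraries and at 0.77, 0.72 and 0.75 times in the cisplatin libraries, so that Socs5 was the higher of the pair in every PBS library and the lower in every cisplatin library. The mean ratio was 1.97 ± 0.13 and 0.75 ± 0.028 (SD, n = 3), with an exact permutation p of 0.1, the smallest the design allows. Because the groups already stood apart in opposite directions for each gene, the ratio had to separate them, and this p adds no support. Socs5 (ENSMUSG00000037104) is given on the plus strand of chromosome 17 at 87107679 to 87137583, and Socs4 (ENSMUSG00000048379) on the plus strand of chromosome 14 at 47276931 to 47296102.

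Socs6 and Socs7, a second pair of paralogues linked to insulin receptor signalling, did not pass the test on the deposited FPKM. With Y-linked scaling both passed as lower, at -0.84 for Socs6 and -0.72 for Socs7, against a median of all tested genes of -0.83. Socs6 was at 3.96, 4.32 and 3.90 FPKM with PBS and at 3.90, 4.08 and 3.72 FPKM with cisplatin, with a log2 fold change of -0.05 (95% interval -0.20 to 0.10, limma adjusted p = 0.535). Socs7 was at 7.0, 5.66 and 5.96 FPKM with PBS and at 6.94, 6.73 and 7.21 FPKM with cisplatin, with a log2 fold change of 0.15 (95% interval -0.04 to 0.33, limma adjusted p = 0.132). Both intervals exclude a change of 2-fold in either direction on log2(FPKM + 1) of the deposited values, and they do not cover the Y-linked scaling. The groups overlap for both genes, for Socs7 through the first PBS library alone. Without that library the log2 fold change of Socs7 was 0.23 (limma adjusted p = 0.0197), and with voom on the recovered reads 0.25 (adjusted p = 0.00769). Socs6 (ENSMUSG00000056153) lies on the minus strand of chromosome 18 at 88665224 to 88927481 and Socs7 (ENSMUSG00000038485) on the plus strand of chromosome 11 at 97362551 to 97398542.

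FPKM is per length of gene, so the members can also be set in order within a group. That length is 1 listed value per gene, 2891 bases for Socs3 and 2908 for Socs1 but 6419 for Cish, 8225 for Socs6 and 9531 for Socs2. Which transcripts were expressed was not tested, so the order and the shares below depend on these lengths. With PBS the order was Socs3, Socs5, Socs4, Socs1, Socs7, Cish, Socs6 and Socs2. The ranges of Socs4 and Socs1 overlapped, as did those of Socs1 and Socs7 and those of Cish and Socs6. With cisplatin it was Socs3, Socs4, Socs5, Socs1, Socs7, Socs6, Cish and Socs2, and no neighbours overlapped. Socs5 and Socs4 thus changed places, and Cish came to stand below Socs6 in every cisplatin library.

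The family as a whole was less dominated by Socs3 with cisplatin. The summed FPKM of the 8 members was 174, 159 and 176 in the PBS libraries and 104, 112 and 110 in the cisplatin libraries. Without Socs3 the sum was 47.5 ± 1.35 FPKM with PBS and 45.2 ± 0.77 FPKM with cisplatin (SD, n = 3), so nearly all of the gap in the family sum was in Socs3. Socs3 made up 71.9% ± 0.89 of the sum with PBS and 58.4% ± 0.92 with cisplatin (SD, n = 3). The share of Socs4 was 5.04% and 11.6%, that of Socs1 4.10% and 7.63%, and that of Socs7 3.66% and 6.42%. Socs6 was at 2.41% and 3.59%, Socs2 at 0.49% and 1.08%, and Socs5 at 9.87% and 8.68%. For these 7 members the groups did not overlap and the two-sided exact permutation p was 0.1, which is the smallest possible with 3 against 3. Cish held about the same share, 2.49% and 2.59% (exact permutation p = 0.6). Shares within a library do not change with its scaling, but they are tied to each other, so the higher shares of Socs1, Socs6 and Socs7 go with the lower level of Socs3 and are no separate finding.

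**Figure D2:**
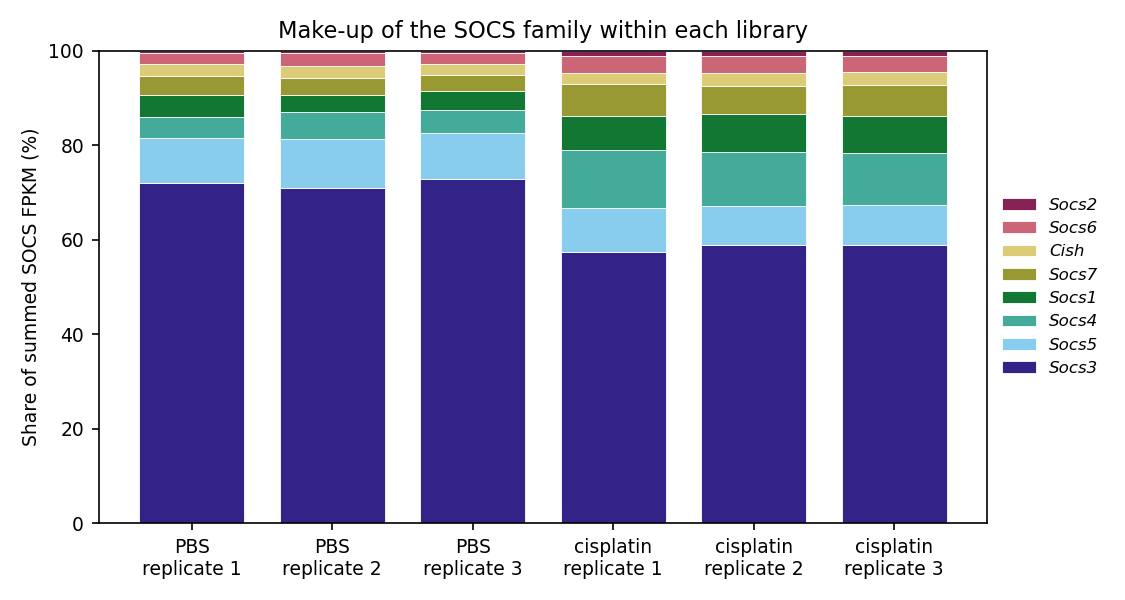
Share of each SOCS gene in the summed FPKM of the 8 members (%), 1 stacked bar per library. Socs3 takes 71.0% to 72.8% in the PBS libraries and 57.3% to 59.0% in the cisplatin libraries, and Socs4 widens from 5.04% to 11.6% on average.

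The direction of the rises depended on how libraries were made comparable. Scaled by the 4 Y-linked genes, which a line of female origin such as ID8 lacks and which rose together here, the median of all tested genes moved to -0.83 on the log2 scale. On that scale Socs4 was at -0.39, Socs2 at -0.25, Socs1 at -0.65 and Socs7 at -0.72, which turns their sign. Socs4 then passed an adjusted p of 0.05 as lower (limma adjusted p = 0.000819), which reverses its call. Socs1, Socs7 and Socs6, the last at -0.84, also passed as lower, and Socs2 did not pass. Relative to that median Socs4 was still 0.44, Socs2 0.58, Socs1 0.18 and Socs7 0.11 higher, and Socs3 was 1.09, Socs5 0.85 and Cish 0.38 lower on the log2 scale. Which cells in the co-culture carried each SOCS transcript cannot be told apart in these libraries.

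**Figure D3:**
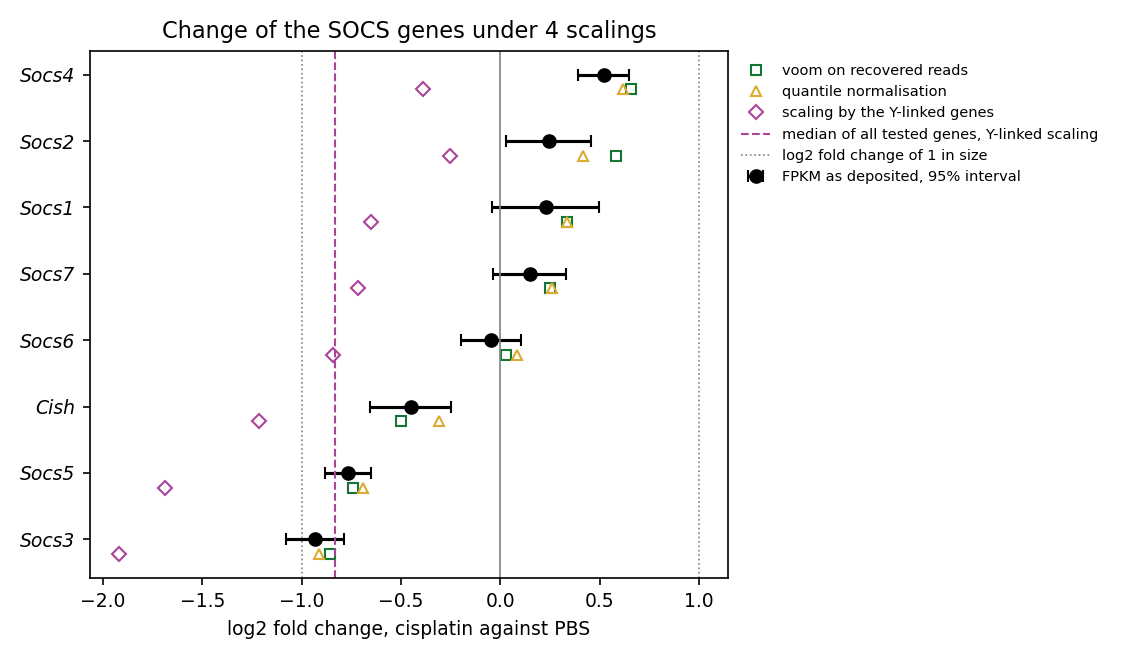
Log2 fold change (cisplatin against PBS) of each SOCS gene from the deposited FPKM with its 95% interval (black), and under voom on recovered reads, quantile normalisation and scaling by the Y-linked genes (open symbols). Socs3, Socs5 and Cish are below 0 under all 4, whereas Socs4, Socs2, Socs1 and Socs7 are above 0 under 3 and below 0 with Y-linked scaling, where the median of all genes is -0.83 (dashed line) and the dotted lines mark a log2 fold change of 1 in size.

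SOCS proteins act through a ubiquitin ligase, and the genes of its other parts are described next. All 6 partner genes were tested. None passed the 2-fold threshold, which 15.9% of all tested genes did, and 3 of the 6 passed the adjusted p, which 68.0% did. With Y-linked scaling 3 of the 6 passed both, as did 39.2% of all tested genes. Counts and medians of this and the following lists are from the deposited FPKM, and scaling by the Y-linked genes turned the medians of the ligase partners, other inhibitors, receptors and STAT3 and STAT5 targets to below 0. The scaffold Cul5 rose from 6.62 ± 0.36 to 8.83 ± 0.58 FPKM (SD, n = 3), with a log2 fold change of 0.37 (limma adjusted p = 0.0018). Elob, which encodes the adaptor elongin B, fell by 0.22 and Arih2, a ligase that works with CUL5, fell by 0.24 on the log2 scale. The other 3, Eloc, Rnf7 and Ube2f, did not pass, and the median over the 6 was 0.03. These names and the others singled out below beyond the 3 largest called genes of a list were chosen after their values were seen.

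Of 26 genes for other proteins with a SOCS box 14 were tested, 7 fell, 2 rose and 5 did not pass, and 68.0% of all tested genes passed in one direction or the other. The median log2 fold change was -0.16, and it was -0.32 with a filter of 5 FPKM and -0.031 without one. Asb2, 1 of the rises, averaged 0.380 FPKM with PBS and 1.46 FPKM with cisplatin, 3.84-fold higher, but it was tested only through the cisplatin group and its log2 fold change of 0.83 is held down by the pseudocount. On the deposited FPKM the list had 1 gene past the 2-fold threshold, which 15.9% of all tested genes passed, and with voom, TPM rescaling or a pseudocount of 0.1 it had 2. The single gene was Spsb1, which directs degradation of inducible nitric oxide synthase. It was at 7.51, 7.42 and 8.23 FPKM with PBS and at 1.42, 2.20 and 1.21 FPKM with cisplatin, a log2 fold change of -1.76 (SE 0.14, limma adjusted p = 3.42e-05). The groups lay far apart.

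The kinases and STATs on which SOCS proteins act were mostly lower with cisplatin. Of the 11 genes 10 fell and none rose, with a median log2 fold change of -0.45 against about 0 over all tested genes, of which 35.1% fell. With Y-linked scaling the median of the list was -1.43, against -0.83 over all tested genes. The 2 of 11 that passed the 2-fold threshold are a share near the 15.9% of all tested genes. Among the kinases Jak1 fell from 95 ± 4.38 to 61.5 ± 2.37 FPKM, a log2 fold change of -0.62, and Jak2, the kinase that SOCS1 and SOCS3 block, had one of -0.45. Jak3 was at -0.85 and Tyk2 at -0.36. Stat2, the partner of interferon receptor signalling that is itself an interferon target, fell from 73.8 ± 1.78 to 18.8 ± 0.65 FPKM, a log2 fold change of -1.92 (SE 0.04, limma adjusted p = 1.01e-07). Stat3, the STAT that SOCS3 restrains, fell from 41.5 ± 0.67 to 26.3 ± 1.07 FPKM (log2 fold change -0.64, SE 0.041, limma adjusted p = 1.17e-05). Smaller falls were those of Stat5b (-0.41), Stat5a (-0.33) and Stat6 (-0.16), and Stat4 was at 0.09 and did not pass.

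Among the 13 other inhibitors of the pathway 5 rose, 5 fell and 3 did not pass, and the median was 0.04. The shares over all tested genes were 32.9% that rose, 35.1% that fell and 15.9% past the 2-fold threshold. Usp18, which removes ISG15 from proteins and blocks the type I interferon receptor, was the 1 gene of the 13 past the 2-fold threshold. It was at 66.9, 65.2 and 66.1 FPKM with PBS and at 15.9, 15.5 and 16.3 FPKM with cisplatin, a log2 fold change of -1.99 (SE 0.035, limma adjusted p = 6.70e-08). The phosphatase gene Ptpn6 was higher by 0.49, the lineage phosphatase Ptprc by 0.72, and the adaptor Sh2b3 by 0.63 on the log2 scale, and Ptprc is also a marker of haematopoietic cells in the macrophage list. Ptpn1, which removes phosphate from JAK2 and TYK2, was at 0.08 and did not pass.

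Of 39 receptor genes 31 were tested, 15 rose, 12 fell and 4 did not pass, and the median log2 fold change was 0.03. Among all tested genes 32.9% rose and 35.1% fell, and 4.67% passed the 2-fold threshold upwards and 11.3% downwards. In 3 of the falls, those of Il20rb, Il12rb1 and Ghr, the gene reached 1 FPKM in PBS libraries only and was tested through that group alone. The 5 that passed the 2-fold threshold downwards included Lifr, Osmr and Il6st of the gp130 family. Lifr, the receptor of leukaemia inhibitory factor, was at 8.89, 10.5 and 9.87 FPKM with PBS and at 1.13, 0.955 and 0.995 FPKM with cisplatin (log2 fold change -2.40, SE 0.078, limma adjusted p = 5.11e-07). Osmr, the oncostatin M receptor, had a log2 fold change of -2.10, Il13ra1 one of -2.12, Il20rb one of -1.25, and Il6st, which encodes gp130, fell from 32.2 ± 1.18 to 10.7 ± 0.46 FPKM (-1.50). Il6ra, the ligand-binding chain that pairs with gp130, rose from 6.42 ± 0.095 to 12.9 ± 0.41 FPKM (0.91). Other partners of gp130 were Il27ra, which rose by 0.46, and Il11ra1, which fell by 0.84 on the log2 scale. The 3 past the threshold upwards were receptors of haematopoietic cells, Csf2ra (1.24), Il7r (1.10) and Csf3r (1.07).

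Of 30 ligand genes 14 were tested, 4 rose and 7 fell, with a median of -0.49 that was -0.010 without a filter and 0.071 with a filter of 5 FPKM. For comparison, 32.9% of all tested genes rose, 35.1% fell and 15.9% passed the 2-fold threshold. The ligands past that threshold were Lif at -1.83, Il10 at -1.44 and Thpo at -1.40. Thpo and Ctf1 reached 1 FPKM in PBS libraries only and were tested through that group alone. Ctf1 was 3.09-fold lower by mean FPKM but missed the threshold on log2(FPKM + 1). Lif was at 11.5, 10.4 and 12.2 FPKM with PBS and at 2.46, 2.52 and 2.45 FPKM with cisplatin. Il10, an anti-inflammatory cytokine that induces Socs3 in macrophages, was at 35.9, 39.0 and 34.0 FPKM with PBS and at 14.9, 10.4 and 13.4 FPKM with cisplatin (SE 0.12, limma adjusted p = 4.94e-05). Il6, another known inducer of Socs3, went the other way, from 6.39 ± 0.14 to 7.76 ± 0.31 FPKM (log2 fold change 0.25, limma adjusted p = 0.00374). Osm rose from 9.30 ± 0.49 to 19.6 ± 1.27 FPKM (log2 fold change 0.998).

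The targets of the STATs are given list by list, and the lists were not tested against each other. Of 10 genes known as targets of interferon-γ signalling, the branch that SOCS1 restrains, 9 were tested. Of these 7 fell and 2 rose, against 35.1% and 32.9% of all tested genes, and the median log2 fold change was -1.29. The 3 largest were Gbp2 (275 ± 11.6 to 22.5 ± 1.51 FPKM, -3.56), Cxcl10 (58.5 ± 1.27 to 4.61 ± 0.45 FPKM, -3.41) and Gbp3 (99.8 ± 2.46 to 11.1 ± 0.12 FPKM, -3.06). Socs1 itself, which interferon-γ induces, did not pass the test in the same libraries. The exceptions in that list were Ciita (1.25) and Irf8 (0.48), which are also genes of B cells and myeloid cells, and Ciita reached 1 FPKM only with cisplatin.

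The counts of the next lists stand beside shares over all tested genes of 32.9% that rose, 35.1% that fell and 15.9% past the 2-fold threshold. Of 10 STAT3 targets 4 rose, 4 fell and 2 did not pass. Only Nfil3 passed the 2-fold threshold, from 46.3 ± 1.06 to 20.46 ± 1.62 FPKM (log2 fold change -1.14). Bcl3 (-0.69), Junb (-0.65) and Il1rn (-0.59) were the other falls, and Etv3 (0.35), Il4ra (0.30), Sbno2 (0.14) and Zfp36 (0.13) were the rises. The median of that list was 0.04. Of 10 STAT5 targets 5 rose and 4 fell, with a median of 0.15. None passed the 2-fold threshold on log2(FPKM + 1), although the mean FPKM of Osm was 2.11-fold higher with cisplatin. The falls were those of Pim2 (-0.56), Ccnd2 (-0.51), Ccnd1 (-0.30) and Bcl6 (-0.14), the largest rises those of Osm (0.998) and Tnfrsf13b (0.74), and Pim1 was at 0.05 and did not pass. Of 12 STAT6 targets 9 were tested, 6 rose and 1 fell, with a median of 1.09. Of the rises 3, those of Mrc1, Ccl17 and Clec10a, were in genes that no PBS library held at 1 FPKM, so they were tested only because of their cisplatin level, and the median is the value of Clec10a itself. The largest were Mrc1 (0.743 ± 0.18 to 11.3 ± 0.44 FPKM, 2.82), Ccl22 (1.24 ± 0.24 to 12.1 ± 0.40 FPKM, 2.55) and Ccl17 (0.371 ± 0.26 to 3.63 ± 0.45 FPKM, 1.77), a mannose receptor and a pair of chemokines of alternatively activated macrophages and dendritic cells. Mrc1, Ccl22 and Ccl17 rose in the libraries in which macrophage markers also rose.

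**Figure D4:**
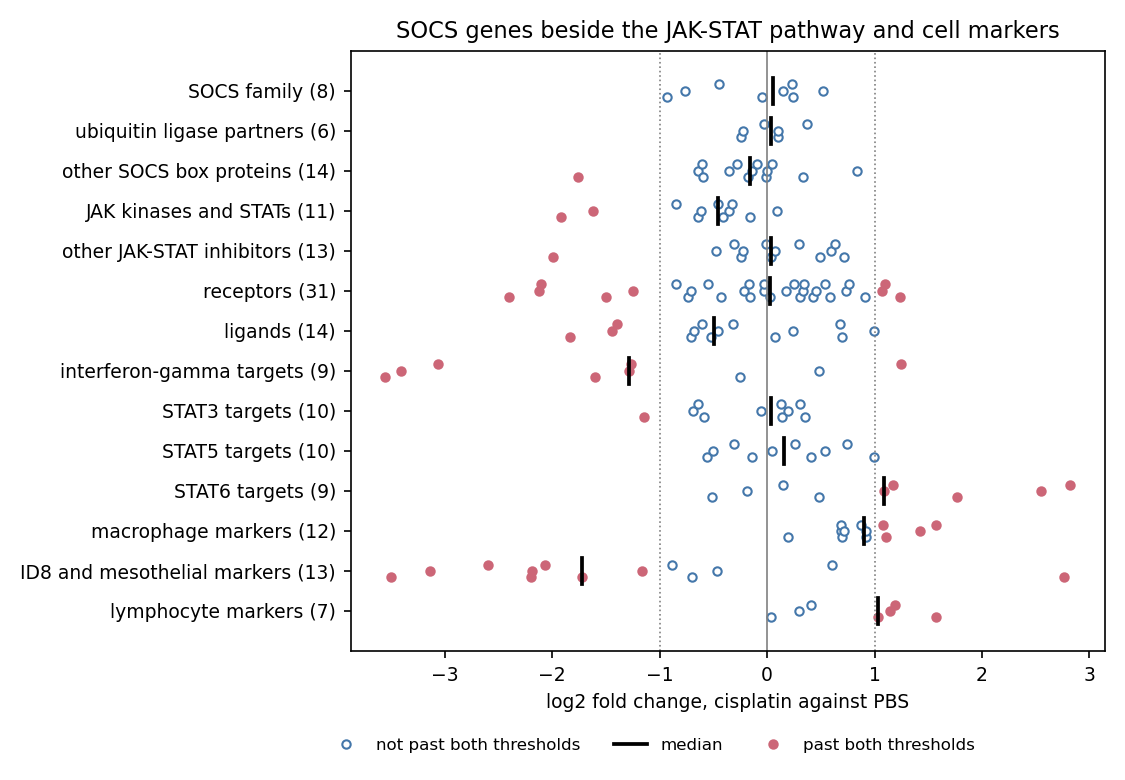
Log2 fold change (cisplatin against PBS) of each tested gene of the SOCS family, of the JAK-STAT lists and of 3 marker lists, with the number tested in brackets. Red points passed both thresholds (an adjusted p under 0.05, and at least 1 in size on the log2 scale, marked by dotted lines) and black lines are list medians, which are 0.05 for the SOCS family, -0.45 for JAK kinases and STATs, -1.29 for interferon-γ targets and 1.09 for STAT6 targets.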

How the data were processed

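RNA was sequenced from 3 cisplatin and 3 PBS libraries. The authors deposited FPKM per gene for each library, from which all other values here were computed. The submitters' processing notes name fastp, HISAT2 2.0.5, featureCounts 1.5.0-p3 and mm10, whereas the study's methods name another aligner and DESeq2 for its own comparisons. FPKM times gene length and depth gave whole reads for all values of up to 200 reads within 0.1 of a read, and larger values were rounded. The depth in the deposited FPKM was 97.4 to 98.7% of the recovered reads in PBS libraries and 103.7 to 104.1% in cisplatin libraries. The members and gene lists were chosen with earlier results of these data known. Genes with at least 1 FPKM in at least 3 libraries were tested on log2(FPKM + 1), which understates changes of low genes, with limma 3.58.1 (trend) in R 4.3.3, all 6 libraries and group as the only term, and Benjamini-Hochberg adjustment over 13441 genes. On simulated data for this comparison (13335 genes) 91.7% of 2-fold and 96.8% of 4-fold changes passed, as did 0.122% of unchanged genes. That simulation changed 200 genes in random directions, with 1 fixed dispersion and no shift in composition between groups. In the data 68.0% of tested genes passed, so these rates cannot be carried over to it. Shares and ratios were compared by two-sided exact permutation, which cannot go below 0.1. The rule for named genes took the 8 members, the JAKs and STATs, up to 3 largest called genes of each list and the 3 genes most like Socs3. The remaining names were picked with their values in view, and some single-gene results of that rule are not reported here. Alternatives were another pseudocount, filters, scalings, voom on the recovered reads, no trend, a replicate block and leaving out each library. Sequences are from RefSeq (GRCm38.p6).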

Additional observations from a re-analysis of the deposited data

How the results depend on the processing

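The falls of Socs3 and Socs5 kept their direction and stayed past an adjusted p of 0.05 under every alternative, and the fall of Cish did under all in which Cish was tested, a filter of 5 FPKM leaving out Cish, Socs2 and Socs6. Socs2 was at 0.37 with TPM rescaling, 0.24 without a filter, 0.45 with a pseudocount of 0.1 and 0.24 with the replicate block, and no longer passed in any of these. It passed with voom on recovered reads (0.58, adjusted p = 0.000625), quantile normalisation (0.41, adjusted p = 0.00572) and no trend (0.24, adjusted p = 0.00408). Voom on recovered reads gave 0.34 for Socs1 and 0.25 for Socs7, quantile normalisation gave 0.33 and 0.26, and all 4 values passed, while Socs6 turned to 0.029 and 0.082 without passing. The median of all tested genes moved to 0.085 and 0.10 under these, above both values of Socs6. With scaling by the Y-linked genes Socs1 was at -0.65, Socs2 at -0.25, Socs4 at -0.39, Socs6 at -0.84 and Socs7 at -0.72, against a median of all genes of -0.83. Socs1, Socs4, Socs6 and Socs7 passed as lower, and Socs2 did not pass. The cause of these changes was not tested, beyond that shift in the median.

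Leaving out each library gave log2 fold changes of 0.12 to 0.33 for Socs1, 0.23 to 0.27 for Socs2 and 0.093 to 0.23 for Socs7, and 4 to 6 members passing. Past both thresholds were 3 members with Y-linked scaling, under which 39.2% of all tested genes were, and 5 with an adjusted p alone, and with a filter of 5 FPKM 3 members passed the adjusted p, since fewer were tested. The share of Cish, 0.107 percentage points higher with cisplatin in FPKM, was 0.33 percentage points lower (-0.33) in recovered reads, which are not scaled to length, and 0.019 to 0.25 higher when a library was left out.

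Counts past both thresholds moved by over 1.5 times as follows. With an adjusted p alone they were 3 for the ubiquitin ligase partners, 9 for the other SOCS box proteins, 10 for the JAK kinases and STATs, 10 for the other inhibitors, 27 for the receptors, 11 for the ligands, 8 for the STAT3 targets and 9 for the STAT5 targets. With Y-linked scaling they were 3, 7, 10 and 5 for the first 4 of these, 8 for the ligands, 5 for the STAT3 targets and 4 for the STAT5 targets. The other SOCS box proteins had 2 with TPM rescaling, voom or a pseudocount of 0.1, the ligands 5, 6 and 6 under the same settings and 3 to 4 when a library was left out. The STAT5 targets had 1 with TPM rescaling, voom, median-of-ratios scaling, quantile normalisation or a pseudocount of 0.1 and 0 to 1 when a library was left out, and the STAT6 targets 3 with a filter of 5 FPKM. List medians that changed sign were, with Y-linked scaling, -0.93 for the ligase partners, -0.90 for the other inhibitors, -0.83 for the receptors, -0.95 for the STAT3 targets and -0.82 for the STAT5 targets, and 0.071 for the ligands with a filter of 5 FPKM. Without a filter the median was -0.010 for the ligands and -0.031 for the other SOCS box proteins, whose median was -0.32 with a filter of 5 FPKM, -0.058 with quantile normalisation and -1.06 with Y-linked scaling. Leaving out a library gave medians of -0.0025 to 0.12 for the other inhibitors, -0.0017 to 0.074 for the receptors and -0.017 to 0.071 for the STAT3 targets.

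Same-numbered libraries of the groups did not deviate together (correlations of -0.104, -0.0857 and -0.0236). With 3 libraries per group this cannot show whether same-numbered libraries shared an animal, a day or a batch, which the labels do not give. With the replicate block 4 of the 8 members passed in place of 5, and no count past both thresholds changed. Depth limits Socs2 most, at 124 to 190 reads per library.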
